A study of Danio rerio with 6 samples.

Results

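The genes described here act in making the small (40S) ribosomal subunit. They are the 47 genes of the study's list of 40S biogenesis genes that its lists of nucleolar genes, DEAD-box helicases and ribosomal proteins do not also name, out of 23510 genes counted in GFP+ Müller glia (MG) of the zebrafish retina. The study's list held 65 genes for the mycb experiment, of which 13 were also on its nucleolus list and 5 on its helicase list. The study had listed these genes because their RNA rose after injury in wild-type (Wt) MG, in libraries analysed again here. The list's title also names regulation by mycb and mych, although it holds genes the study did not mark as changed in the mutant too, so the comparison of mutant and Wt may not be independent of the choice either. The rise after injury is therefore a property of the choice and is given below as a description with no test.

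A ribosome begins as one long precursor RNA that RNA polymerase I transcribes in the nucleolus. Its 5′ part folds into a large particle, the small subunit processome, which is built from pre-assembled complexes (UTP-A, UTP-B and the U3 snoRNP, a box C/D particle) and further single factors. Enzymes modify and cleave the 18S part, and the pre-40S particle is exported and finished in the cytoplasm by kinases, GTPases and the NOB1 nuclease. These roles are known mainly from yeast and human cells. Myc transcription factors are known to raise the expression of ribosome biogenesis genes in many growing cells, and fish MG divide after retinal injury to give progenitors that replace neurons.

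The data were 6 poly(A) RNAseq libraries, 2 each of uninjured Wt, Wt at 2 days post injury (dpi) and mycb-/- (mycb mutant) at 2 dpi. All came from fish that carry the gfap:GFP transgene, in which a glial promoter marks MG, activated MG and the progenitors they give rise to, so a sorted sample can hold all of these. The methods describe sorts of GFP+ cells pooled from 16 retinas with 10 needle pokes per injured retina, and male and female fish of 4 to 12 months. The mutant carries a Cas9-made deletion in mycb, and no uninjured mutant libraries are part of these data, so a difference present before injury cannot be told apart from one in the response to it. Whether the 2 libraries of a group came from separate animals is not stated in the labels, and p-values measure the spread between these libraries.

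Each library held between 47088844 and 64353562 counts, and every member had at least 125 counts in every library. Values are given as CPM (counts scaled to a common library total) after scaling by edgeR's TMM method, and gene levels are compared between libraries only, since CPM takes no account of gene length. All 47 members passed the filter on low counts, as did 20329 genes in all. A gene was called where edgeR's quasi-likelihood test gave an adjusted p (Benjamini-Hochberg, over all genes tested) no higher than 0.05 together with a log2 fold change beyond 0.5 in either direction. The mutation itself was not checked. The gene table names 2 identifiers MYC without telling the copies apart, and between mutant and Wt at 2 dpi their log2 fold changes were -0.50 (not called) and 1.22 (called higher).

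All 47 members stood higher in both Wt libraries at 2 dpi than in both uninjured Wt libraries, as the choice favoured. The same separation was shown by 35.2% of all genes tested and by 3854 of the 3857 other genes called higher with injury. For the members, nothing is read from it. The members' log2 fold changes ranged from 0.65 for rbm19, an RNA-binding processome factor, to 3.27 for npm1a, which encodes the nucleolar chaperone nucleophosmin. The median was 1.59. Together the members took 0.0789 and 0.0887% of the counts of the uninjured libraries, 0.296 and 0.280% of those of Wt at 2 dpi, and 0.155 and 0.153% of those of the mutant. All 47 were called higher with injury, against 19.2% of all genes tested (17.4% were lower), and nothing is read from this count. In the plot of levels by library the Wt 2 dpi columns were the darkest for 44 of the 47 members. The shares of other genes with this separation from the mutant are given below.

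**Figure D1:**
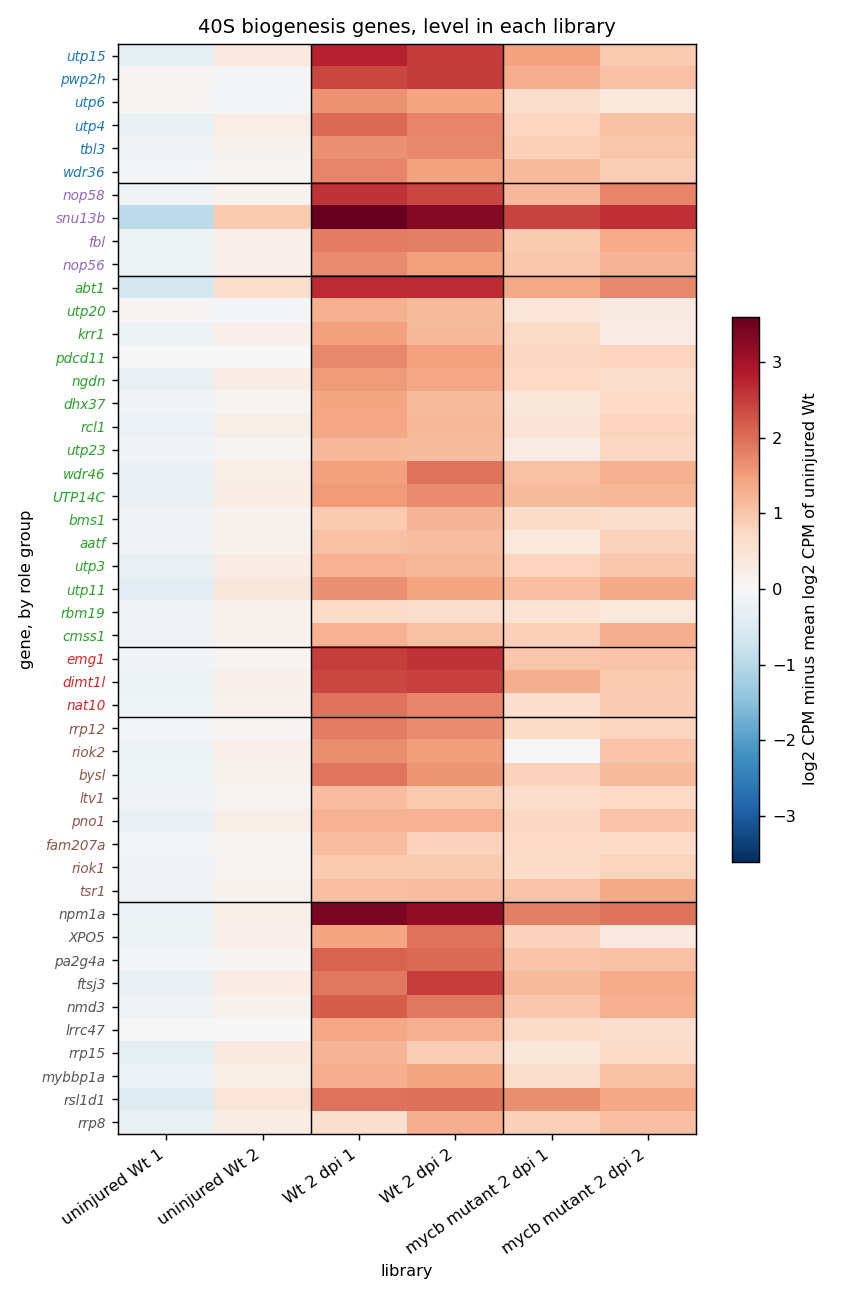
Level of each of the 47 members in the 6 libraries, as log2 CPM minus the mean log2 CPM of uninjured Wt (colour), in rows by role group (from the top: UTP-A and UTP-B, box C/D core, other processome and early factors, 18S rRNA modification, late pre-40S maturation, other steps). The Wt 2 dpi columns were higher than the uninjured ones for all 47, and the mutant columns lay between them for most members; snu13b differed most between the 2 uninjured libraries.

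Mycb mutant MG at 2 dpi were compared with Wt MG at 2 dpi to ask how much of this expression was reached in the mutant. Of the 47 members, 24 were called lower in the mutant (51.1%) and 0 were called higher. The share called lower was 12.2% over all genes tested (8.21% were higher) and 38.3% over the 3857 injury-induced genes that are no member. The members had been chosen for being high in the Wt 2 dpi libraries, which this comparison uses as well, so its direction is not independent of the choice and the injury-induced genes are the nearer background. At an unadjusted p under 0.05, 31 members were lower and 0 higher. Such a p, in either direction, was found for 6816 of the 20329 genes tested and 2318 of the 3857 other injury-induced genes. DESeq2 called 23 members lower (48.9%) and 0 higher, against 37.4% of the other injury-induced genes lower.

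The members' difference was close in size to that of the other injury-induced genes. Their median log2 fold change between mutant and Wt was -0.72, against -0.70 for the injury-induced genes that are no member and -0.13 for all genes tested. The middle members (the interquartile range) lay between -0.99 and -0.44, with a median SE of 0.22 and a largest SE of 0.44. For the other injury-induced genes the median SE was 0.25 and the largest 2.96. The shares called therefore do not rest on equal precision, and the part of this in them was not tested. A log2 fold change of -1 or below was reached by 11 members (23.4%), and by 32.5% of the other injury-induced genes. For 44 members the mutant libraries did not overlap those of Wt at 2 dpi and were lower, a separation shown by 36.3% of all genes and 80.7% of the other injury-induced genes. The exceptions were tsr1, cmss1 and rrp8.

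**Figure D2:**
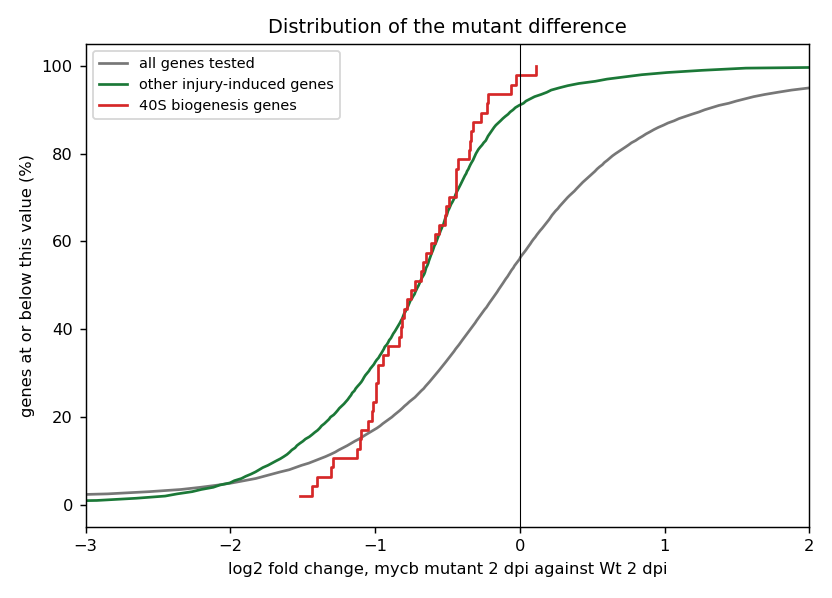
Cumulative share of genes (y, %) at or below each log2 fold change between mycb mutant and Wt at 2 dpi (x), for all genes tested, the other injury-induced genes and the 47 members. The members' curve followed that of the other injury-induced genes, with medians of -0.72 and -0.70, and stopped short of its lower tail, at -1.52.

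The number called depended on every library of the comparison. The share of 38.3% over the other injury-induced genes came from the fit with all libraries and is no background for the counts in this paragraph. Calls among those genes fell as well where a library of the comparison was left out. The members' median log2 fold change was then -0.66 and -0.73 without Wt 2 dpi replicates 1 and 2, against -0.66 and -0.72 for those genes. Without mutant replicates 1 and 2 it was -0.63 and -0.67, against -0.65 and -0.63. Without one or the other Wt 2 dpi library 10 (replicate 1) and 15 (replicate 2) members were called lower, and without one or the other mutant library 12 (replicate 1) and 10 (replicate 2), while 0 were called higher each time. Of the 24 called members, 7 were called in each of the 6 fits that left out a library, the uninjured ones included: pwp2h, emg1, nat10, rrp12, pa2g4a, dimt1l and npm1a. At the other end, tbl3, fbl, krr1, dhx37 and lrrc47 were called in 1 of the 6.

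Markers of cell types differed between the same libraries. The sorted cells expressed MG markers, but gfap, rlbp1a and apoeb, all 3 of the MG list that could be matched, were called lower in the mutant than in Wt at 2 dpi, and their summed level was 2633 to 3479 CPM against 11134 to 11971 CPM. In uninjured Wt it was 3340 to 4017 CPM. Gfap is also the gene whose promoter drives the GFP used in sorting, and its log2 fold change was -1.92. Dividing-cell genes (cdk1, ccna2 and the study's mcm list) were called lower for 11 of 13, at 323 to 365 CPM in the mutant and 1128 to 1130 CPM in Wt at 2 dpi. None of the lists had a defining marker at 0 in all libraries.

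Rod markers were higher in the mutant for 8 of 10 tested identifiers, with summed levels of 8183 to 9819 CPM against 1003 to 1605 CPM in Wt at 2 dpi. In uninjured Wt the sum was 9646 to 16858 CPM, and 9 identifiers were called lower with injury. Cone markers were higher for 6 of 6, at 33808 to 38456 CPM against 12612 to 12989 CPM. Their sum in uninjured Wt was 18521 to 27975 CPM, and 5 were called lower with injury. Immune cell markers were higher for 2 of 4 (131 to 143 CPM against 47.04 to 68.4 CPM). Of the markers of inner retinal neurons 0 of 3 were called by edgeR (306 to 388 CPM against 222 to 272 CPM). DESeq2 and an unadjusted p under 0.05 each gave 10 rod, 6 cone, 3 immune and 2 inner neuron identifiers as higher. The inner neuron marker vsx1 was at -0.0051 ± 0.17 (SE). The part of these shifts in the results on the 40S biogenesis genes was not tested. In bulk samples, fewer cells of a type and less RNA per cell cannot be told apart.

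**Figure D3:**
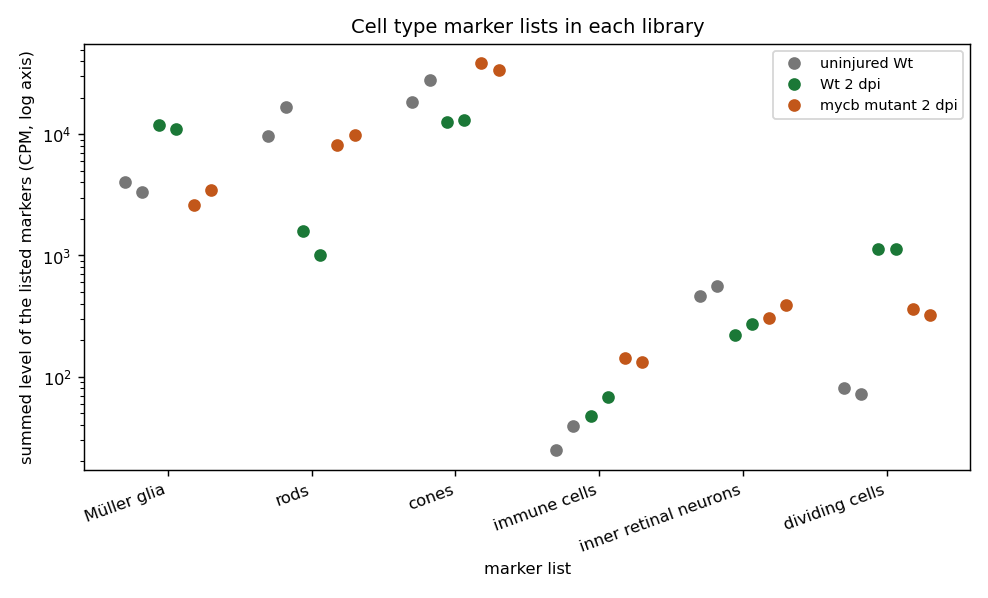
Summed level of each cell type marker list in every library (CPM, log axis), coloured by group. In the mutant the MG and dividing-cell lists lay below Wt at 2 dpi. The rod, cone, immune and inner retinal neuron lists lay above it. The libraries of those 2 groups did not overlap for any list.

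UTP-A and UTP-B are among the first large complexes to join the nascent precursor RNA. All 6 members from them had negative log2 fold changes and 5 were called lower (median -0.995). For this and the following role groups, the shares called lower to compare with were 12.2% over all genes and 38.3% over the other injury-induced genes. Both shares are from the fit with all libraries and are no background for counts with a library left out. The count was 2 without Wt 2 dpi replicate 1, 3 without mutant replicate 1 and 1 without mutant replicate 2. Of the UTP-A proteins, utp15 (ENSDARG00000002720) stood at 4.75 and 7.601 CPM in uninjured Wt, 40.99 and 34.3 CPM in Wt at 2 dpi and 16.4 and 11.5 CPM in the mycb mutant. The mutant libraries lay well below those of Wt at 2 dpi and above the uninjured ones, with a log2 fold change against Wt of -1.43 ± 0.28 (SE; adjusted p = 0.0067). For utp4 it was -0.98 ± 0.24 (SE; adjusted p = 0.0196).

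Among the UTP-B proteins, most of which are built of WD40 repeats, pwp2h (ENSDARG00000037109) stood at 15.4 and 14.2 CPM in uninjured Wt, 79.1 and 85.1 CPM in Wt at 2 dpi and 36.6 and 30.6 CPM in the mycb mutant. The replicates of each group lay close together and the groups were fully separated, and the log2 fold change was -1.29 ± 0.18 (SE; adjusted p = 0.00173). The level of utp6 (ENSDARG00000098433) was 19.03 and 17.7 CPM in uninjured Wt, 56.7 and 48.7 CPM in Wt at 2 dpi and 28.4 and 23.8 CPM in the mycb mutant. Its mutant libraries came nearer to the uninjured ones than to those of injured Wt (-1.01 ± 0.19, SE; adjusted p = 0.00566). Tbl3 was called as well (-0.75 ± 0.20, SE; adjusted p = 0.0255). The level of wdr36 (ENSDARG00000004774) was 16.1 and 17.3 CPM in uninjured Wt, 56.6 and 45.5 CPM in Wt at 2 dpi and 37.1 and 31.1 CPM in the mycb mutant. Its groups did not overlap either, but the difference of -0.58 ± 0.19 (SE) missed the threshold at an adjusted p of 0.0615.

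**Figure D4:**
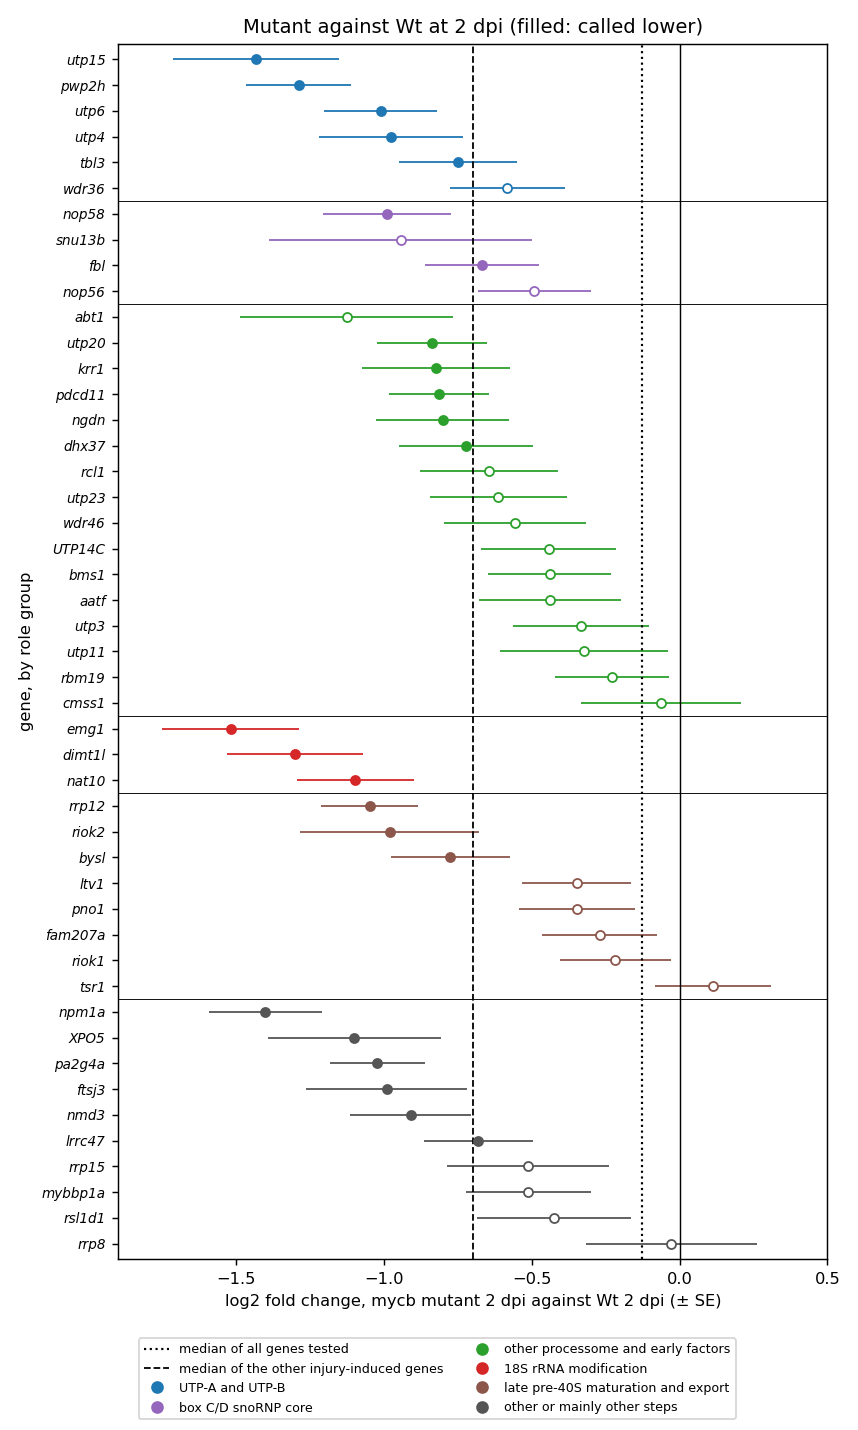
Log2 fold change (x, ± SE) between mycb mutant and Wt at 2 dpi for all 47 members, grouped and coloured by role, filled where called lower. The dotted line is the median of all genes tested (-0.13) and the dashed line that of the other injury-induced genes (-0.70). All 3 members of the 18S modification group lay to the left of the dashed line, and 5 of the 8 late pre-40S factors to its right.

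The box C/D core proteins bind guide snoRNAs, including the U3 RNA of the processome. The methyltransferase fibrillarin is encoded by fbl. Here 2 of 4 members were called lower, with a median of -0.81. This became 0 without Wt 2 dpi replicate 1 or mutant replicate 1, and 1 without Wt 2 dpi replicate 2, without mutant replicate 2 or with RLE size factors. Nop58 (ENSDARG00000104353) stood at 25.8 and 30.5 CPM in uninjured Wt, 169 and 148 CPM in Wt at 2 dpi and 63.6 and 95.6 CPM in the mycb mutant. Both mutant libraries were below both Wt 2 dpi libraries, although they differed among themselves, and the log2 fold change was -0.99 ± 0.22 (SE; adjusted p = 0.0113).

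Fbl (ENSDARG00000053912) was at 28.95 and 36.8 CPM in uninjured Wt, 116 and 115 CPM in Wt at 2 dpi and 63.2 and 81.99 CPM in the mycb mutant. Its difference of -0.67 ± 0.19 (SE; adjusted p = 0.0361) was smaller than that of nop58. Nop56 (ENSDARG00000012820), the partner of Nop58, stood at 47.98 and 62.7 CPM in uninjured Wt, 179 and 153 CPM in Wt at 2 dpi and 109 and 128 CPM in the mycb mutant. This was a difference of -0.49 ± 0.19 (SE), which was not called (adjusted p = 0.104). Snu13b (ENSDARG00000023299) stood at 3.32 and 12.4 CPM in uninjured Wt, 79.9 and 62.98 CPM in Wt at 2 dpi and 34.9 and 39.4 CPM in the mycb mutant. The 2 uninjured libraries were far apart for this gene and its estimate, -0.94 ± 0.44 (SE; adjusted p = 0.169), had the largest SE of the members. Another identifier in the gene table has the symbol SNU13, so reads may be shared between copies. Snu13b was called lower under 2 of the 8 other settings, no filter on low counts and the compared groups alone. The result depended on which uninjured libraries were in the fit.

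The 3 members that modify 18S rRNA were all called lower, and their median, -1.30, was the most negative of the 6 role groups. Factors of this step that are no members were mixed. Bud23 (-0.63 ± 0.21, SE; adjusted p = 0.0615) and tsr3 (0.30 ± 0.27, SE; adjusted p = 0.502) were not called. The gene trmt112, which encodes an activator of Bud23, was called lower (-0.82 ± 0.21, SE). Emg1, a methyltransferase that acts on a pseudouridine, had the most negative value of all 47 members. Its level (ENSDARG00000056914) was 3.59 and 4.16 CPM in uninjured Wt, 21.6 and 23.2 CPM in Wt at 2 dpi and 7.75 and 7.88 CPM in the mycb mutant. The mutant replicates were nearly equal, and the log2 fold change was -1.52 ± 0.23 (SE; adjusted p = 0.00241). Dimt1l (ENSDARG00000005057), which dimethylates adenosines near the 3′ end of 18S rRNA, stood at 5.36 and 6.97 CPM in uninjured Wt, 32.4 and 33.8 CPM in Wt at 2 dpi and 15.04 and 11.8 CPM in the mycb mutant. It was lower by more than the spread between replicates (-1.30 ± 0.23, SE; adjusted p = 0.00433). Nat10 (ENSDARG00000054259), which acetylates cytidines, stood at 19.99 and 25.2 CPM in uninjured Wt, 86.9 and 75.7 CPM in Wt at 2 dpi and 33.8 and 42.2 CPM in the mycb mutant. The groups did not overlap, and its difference was -1.10 ± 0.20 (SE; adjusted p = 0.00473). All 3 were called in every fit that left out a library.

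Of 16 further processome and early factors 5 were called lower (utp20, krr1, pdcd11, ngdn and dhx37). The share over the other injury-induced genes was 38.3%, so this count does not set the group apart. The count was 0 without Wt 2 dpi replicate 1 or mutant replicate 2, 2 without Wt 2 dpi replicate 2 or mutant replicate 1, 3 with RLE size factors and 8 with library size only. The log2 fold changes of all 16 were negative, with a median of -0.59, although the sign for cmss1 depended on the scaling. Utp20 (ENSDARG00000099280), a large HEAT-repeat scaffold, stood at 16.7 and 15.7 CPM in uninjured Wt, 39.4 and 35.7 CPM in Wt at 2 dpi and 21.7 and 20.3 CPM in the mycb mutant. The mutant lay close to the uninjured level, at -0.84 ± 0.19 (SE; adjusted p = 0.0121) against Wt at 2 dpi. Krr1 (ENSDARG00000011246), a KH-domain RNA-binding protein, stood at 7.58 and 9.94 CPM in uninjured Wt, 24.1 and 19.5 CPM in Wt at 2 dpi and 13.9 and 10.7 CPM in the mycb mutant. It was called at -0.82 ± 0.25 (SE; adjusted p = 0.0439), a call lost with DESeq2, RLE size factors or the compared groups alone. Dhx37 lost its call under the same 3 settings and with the replicate number as a block.

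Abt1 (ENSDARG00000043666), related to the yeast processome factor Esf2, stood at 2.11 and 5.01 CPM in uninjured Wt, 21.1 and 20.7 CPM in Wt at 2 dpi and 8.43 and 10.7 CPM in the mycb mutant. The groups were separated, but the estimate was imprecise (-1.13 ± 0.36, SE) and the adjusted p was 0.0531. The gene abt1 was called lower under 5 of 8 other settings, among them DESeq2 (-1.05, adjusted p = 0.0422) and the replicate block (-1.16, adjusted p = 0.0237), and in 2 of the 6 fits that left out a library. Cmss1 (ENSDARG00000112579) was the least changed of this group, at 4.56 and 5.54 CPM in uninjured Wt, 12.04 and 10.5 CPM in Wt at 2 dpi and 9.11 and 12.4 CPM in the mycb mutant. Its Wt and mutant libraries overlapped, and the value of -0.06 ± 0.27 (SE; adjusted p = 0.91) became 0.011 with RLE size factors. The GTPase gene bms1 and its partner rcl1 were not called either, at -0.44 ± 0.21 and -0.65 ± 0.23 (SE).

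Of the 8 late pre-40S factors 3 were called lower, with a group median of -0.35. Over the other injury-induced genes 38.3% were called lower, with a median of -0.70, so this count does not set the group apart. The count was 1 without Wt 2 dpi replicate 1, without mutant replicate 1 or with the compared groups alone. Rrp12 (ENSDARG00000022410), which takes part in export, stood at 33.95 and 35.5 CPM in uninjured Wt, 125 and 113 CPM in Wt at 2 dpi and 54.7 and 60.4 CPM in the mycb mutant. Replicates were close and the log2 fold change was -1.05 ± 0.16 (SE; adjusted p = 0.00262). Bysl (ENSDARG00000001057), the counterpart of yeast Enp1, stood at 24.8 and 30.7 CPM in uninjured Wt, 105 and 83.6 CPM in Wt at 2 dpi and 49.05 and 60.9 CPM in the mycb mutant. It was lower in both mutant libraries (-0.78 ± 0.20, SE; adjusted p = 0.023). Riok2 (ENSDARG00000035264), a kinase of cytoplasmic pre-40S particles, stood at 14.2 and 18.1 CPM in uninjured Wt, 50.95 and 45.2 CPM in Wt at 2 dpi and 16.1 and 32.6 CPM in the mycb mutant. One mutant library was at the uninjured level and the other between the uninjured and injured Wt levels, and the call (-0.98 ± 0.30, SE; adjusted p = 0.0462) was lost without mutant replicate 1 (-0.56, adjusted p = 0.192). It was also lost without uninjured replicate 2, without either Wt 2 dpi library, with RLE size factors and with the compared groups alone.

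The other members of this step were not called: ltv1 (-0.35 ± 0.18), pno1 (-0.35 ± 0.20), fam207a (-0.27 ± 0.20) and riok1 (-0.22 ± 0.19, all SE). Tsr1 (ENSDARG00000007744), a GTPase-like factor that holds immature particles back from translation, stood at 16.3 and 19.4 CPM in uninjured Wt, 37.7 and 38.2 CPM in Wt at 2 dpi and 36.4 and 45.8 CPM in the mycb mutant. It was the only member with a positive log2 fold change, 0.11 ± 0.20 (SE; adjusted p = 0.749), which was -0.025 with library size only as scaling, and its Wt and mutant libraries overlapped. An approximate interval of 2 SE on either side of the tsr1 value runs from -0.28 to 0.50, and the data allow a difference in either direction within it.

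**Figure D5:**
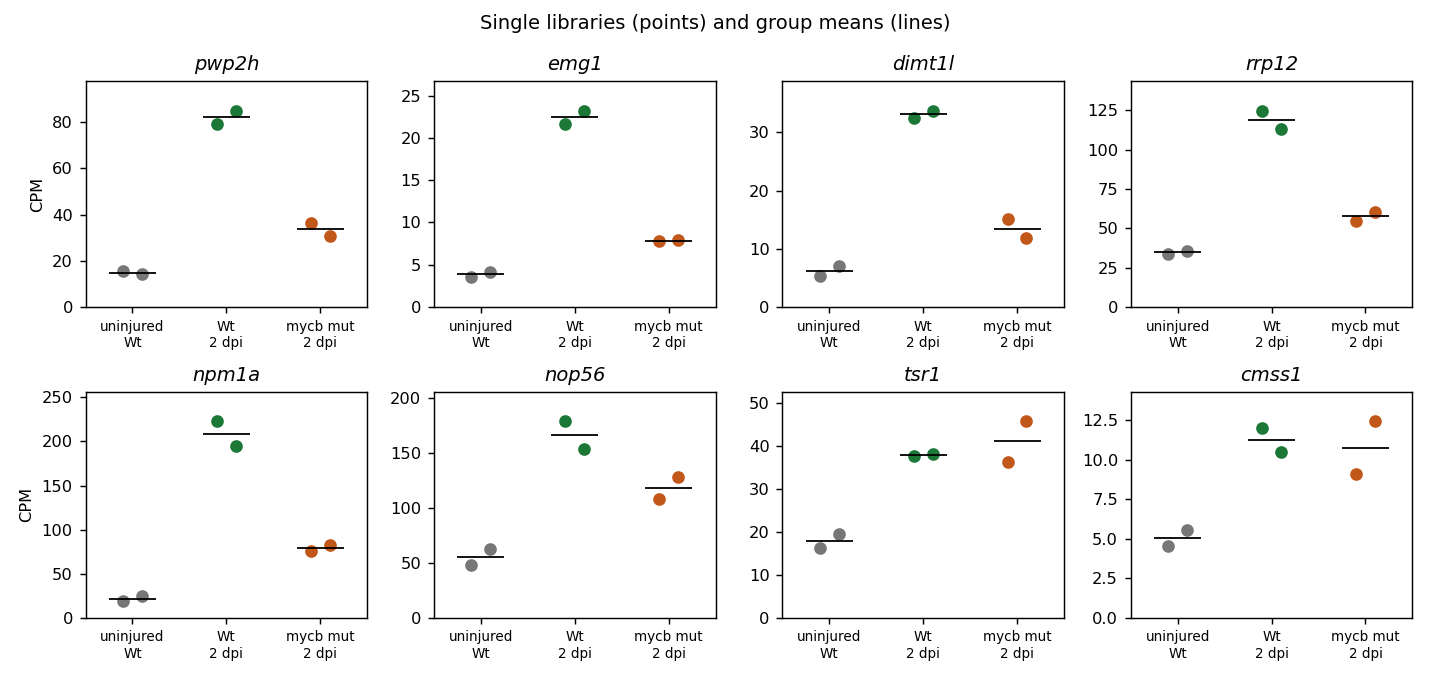
CPM of 8 members in single libraries (points) with the group means (lines), axes from 0. For pwp2h, emg1, dimt1l, rrp12 and npm1a the mutant lay between uninjured and injured Wt with no overlap; nop56 was less reduced; for tsr1 and cmss1 mutant and Wt at 2 dpi overlapped.

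The remaining 10 members are known also or mainly for other steps, and 6 of them were called lower with a group median of -0.80. The count was 3 without Wt 2 dpi replicate 2 or without either mutant library. Npm1a (ENSDARG00000014329) stood at 18.5 and 24.8 CPM in uninjured Wt, 223 and 195 CPM in Wt at 2 dpi and 75.4 and 82.7 CPM in the mycb mutant. It had the most negative value of this group (-1.40 ± 0.19, SE; adjusted p = 0.00167). XPO5 (ENSDARG00000098868), exportin 5, which carries precursor microRNAs out of the nucleus, stood at 5.002 and 6.35 CPM in uninjured Wt, 14.96 and 22.05 CPM in Wt at 2 dpi and 10.04 and 7.21 CPM in the mycb mutant. Its replicates at 2 dpi were unequal, and it was called at -1.10 ± 0.29 (SE; adjusted p = 0.0258). Pa2g4a (ENSDARG00000039578), which encodes a protein that binds ribosomes, stood at 70.7 and 79.3 CPM in uninjured Wt, 323 and 308 CPM in Wt at 2 dpi and 154 and 157 CPM in the mycb mutant. Its groups were well separated (-1.02 ± 0.16, SE; adjusted p = 0.00275).

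The 60S export adaptor nmd3 (-0.91 ± 0.21), the rRNA methyltransferase ftsj3 (-0.99 ± 0.27) and lrrc47 (-0.68 ± 0.18, all SE) were the other called members of this group, and the first of these acts on the large subunit. Rrp8 (ENSDARG00000071652), an rRNA methyltransferase whose yeast counterpart acts on the large subunit, stood at 7.73 and 11.2 CPM in uninjured Wt, 13.9 and 23.1 CPM in Wt at 2 dpi and 16.7 and 19.5 CPM in the mycb mutant. Its 2 Wt 2 dpi libraries spanned both mutant values, and the log2 fold change of -0.03 ± 0.29 (SE; adjusted p = 0.964) became 0.047 with RLE size factors. Npm1a and pa2g4a carry the letter of one gene copy, and how the counting treated reads shared between copies is not given in the sources used here.

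Mutant MG at 2 dpi were also set against uninjured Wt MG, to see whether the members stood above the uninjured Wt level in the mutant. Of the 47 members 35 were called higher and 0 lower, against 12.2% higher among all genes and 51.2% among the injury-induced genes that are no member. All 47 log2 fold changes were positive (median 0.91, against 0.82 for those genes), from 0.38 for utp20 to 2.24 for snu13b. Both mutant libraries were above both uninjured libraries for 46 members, with 32.6% as the share over all genes, and riok2 was the exception. Of the 3857 injury-induced genes that are no member, 3148 showed the same separation. DESeq2 called 37 higher and 0 lower, and at an unadjusted p under 0.05 there were 41 and 0. This comparison differs in genotype and injury together. The members had been chosen for rising above the uninjured Wt libraries, which it uses as well. Its direction is therefore not independent of the choice, and the injury-induced genes are the nearer background. The count rested on uninjured replicate 1, without which 16 members were called, and without uninjured replicate 2 it was 38.

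Expressed as a share of the Wt log2 rise, the mutant reached a median of 55.9% over the members and 57.6% over the other injury-induced genes. The share was 31.1% for utp20, the lowest member, and 110% for tsr1, the highest. By role group the median was 40.6% for 18S modification, 48.0% for UTP-A and UTP-B, 55.1% for the other steps, 57.4% for the other processome factors, 66.1% for the box C/D core and 68.8% for the late pre-40S factors. These shares use the same Wt libraries in both terms and are descriptions. Without uninjured mutant libraries they are not shares of a response to injury in the mutant. Rod and cone markers also differed between uninjured and injured Wt, and their part in these shares was not tested.

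Other genes of the same process gave a wider view of the complexes. Of the 18 list genes left out because they are also on the nucleolus or helicase list, 12 were called lower in the mutant, with a median of -0.95, and 0 higher, where the shares called lower were 12.2% over all genes and 38.3% over the other injury-induced genes. The count was 4 without Wt 2 dpi replicate 1 or without either mutant library. Their lowest values were -1.31 ± 0.27 (SE) for noc4l, -1.29 ± 0.25 for nop14 and -1.22 ± 0.22 for nol7, and the highest -0.22 ± 0.24 for nom1. Nop14 was the only one with a mean in the mutant below that of uninjured Wt, at 8.32 and 11.1 CPM in uninjured Wt, 21.4 and 17.8 CPM in Wt at 2 dpi and 7.97 and 8.11 CPM in the mycb mutant. Among 15 further small subunit factors taken by symbol, of which 1 (rrp9) is on the nucleolus list, 8 were called lower and 0 higher. Apart from rrp9 these were 7 of 14, which became 3 and 4 without Wt 2 dpi replicates 1 and 2, and 3 and 2 without mutant replicates 1 and 2. DESeq2 called 11 of the 18 and 8 of the 15 lower and 0 higher, against 37.4% of the other injury-induced genes lower. No gene of either set was higher at an unadjusted p under 0.05.

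Grouped by complex after their values had been seen, all 6 UTP-A genes were called lower (utp4, utp15, nol11, heatr1, wdr43 and wdr75, median -1.05), as were 4 of 6 of UTP-B (pwp2h, tbl3, utp6 and wdr3). The other UTP-B genes were wdr36, and utp18, whose only matched identifier had under 1 CPM in every library. The shares called lower were 12.2% over all genes and 38.3% over the other injury-induced genes. Utp4 and fbl, among others, lost their calls in fits that left out a library. All 3 of emg1, nop14 and noc4l, whose yeast counterparts bind each other, were called. Of the box C/D core with the U3 protein gene rrp9, 3 of 5 were called (fbl, nop58 and rrp9, median -0.94), and of the MPP10 complex (mphosph10, imp3 and imp4) 1 of 3, imp4, with a median of -0.38. Of 7 genes of cytoplasmic pre-40S maturation (tsr1, ltv1, nob1, pno1, riok1, riok2 and riok3) only riok2 was called, with a median of -0.22. The gene of the endonuclease nob1, which makes the last cut of 18S rRNA, was at 34.5 and 48.8 CPM in uninjured Wt, 58.9 and 48.5 CPM in Wt at 2 dpi and 48.03 and 50.9 CPM in the mycb mutant, and it was not called with injury or in the mutant (mutant against Wt -0.12 ± 0.21, SE; adjusted p = 0.751). Bud23, which methylates 18S rRNA, and its activator trmt112 were at -0.63 ± 0.21 (adjusted p = 0.0615) and -0.82 ± 0.21 (SE; adjusted p = 0.0229).

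Beside the list's limit lie 6 genes that the study's sheet gives only for its mych experiment: mphosph10, rrp7a, esf1, xpo1a, rae1 and riok3. Their injury log2 fold changes ran from -0.03 for esf1 to 0.62 for rae1, where the members with the smallest values, rbm19 and riok1, were at 0.65 and 0.95. Only rae1 was called higher with injury. None of the 6 was called lower or higher in the mutant, by edgeR or by DESeq2, and at an unadjusted p under 0.05 rae1 was lower and esf1 higher. Over all genes tested 12.2% were called lower and 8.21% higher. The 6 are few and are absent from the list for the mycb experiment, so nothing is read from this count.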

How the data were processed

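RNA was measured in 6 libraries of FACS-purified GFP+ MG. The authors deposited raw counts per Ensembl gene, mapped to GRCz11 and not normalized. The submitters' processing notes name cutadapt 2.3, FastQC 0.11.8, STAR 2.7.8a, RSEM 1.3.3 and DESeq2 without roles. If the counts are RSEM estimates, they were rounded before deposit. The annotation release and strand setting are not given in the sources used here. The treatment label of both Wt 2 dpi samples says none, against their titles, which were followed.

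Symbols came from a gene name table, which named 21982 of the 23510 identifiers, and from the study's gene lists. Counts were filtered with filterByExpr (minimum count 10), TMM-scaled and tested in edgeR 4.0.16 (R 4.3.3, quasi-likelihood, a term per group, 3 residual degrees of freedom, common biological coefficient of variation 0.396). Genes were called at a Benjamini-Hochberg adjusted p of at most 0.05 and an absolute log2 fold change above 0.5, the thresholds of the methods without the one on FPKM, since gene lengths were not used here. Dividing a log2 fold change by the root of its F statistic gave the SE. The fits were tested on simulated counts. The members had at least 125 counts in every library, and counting error was not compared with the spread between libraries for single members.

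Members, role groups and marker lists were chosen with earlier results of these data known, and many markers come from lists the study made on these libraries. In each role group, the members with the 3 most negative and the 1 least negative log2 fold changes between mutant and Wt at 2 dpi were described library by library (all members in groups of 4 or fewer). Averaged over genes, replicates differed by more than counting noise (chi-square per gene 105, 47.5 and 118). The alternatives were RLE size factors, library size only, TMM without rod and cone markers, no filter, DESeq2 1.42.0, the adjusted p alone, the compared groups alone, a block for the replicate number, and leaving out each library. A search of promoters for the Myc-Max E-box was planned but not run, as promoter sequences were not used here.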

Additional observations from a re-analysis of the deposited data

How the results depend on the processing

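The count of members lower in the mutant than in Wt at 2 dpi, 24, was 19 to 30 under the 8 alternatives other than leaving out a library, and 17 of the 24 members were called under each of those 8. Leaving out a library gave 10 to 26, and 7 members were called in every such fit. In the mutant against uninjured Wt, 30 to 38 members were higher under the 8 alternatives and 16 to 38 with a library left out, against 35. With injury, 43 to 47 were called.

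The median log2 fold change of the members between mutant and Wt at 2 dpi, -0.72, was -0.65 with RLE size factors and with DESeq2, -0.86 with library size only and -0.58 with the compared groups alone, and -0.73 to -0.58 with a library left out. The scalings moved all genes together. The median of all genes was -0.13, -0.05 with RLE size factors, -0.25 with library size only and 0.015 with the compared groups alone, and -0.16 to 0.012 with a library left out. Relative to it the members' median was -0.60 with TMM, -0.60 with RLE size factors, -0.61 with library size only and -0.60 with the compared groups alone. With a library left out this relative median was -0.67 to -0.47. That of the other injury-induced genes was close to it, at -0.57 with TMM. Over all genes 59.8% of calls were lower, against 71.8% with library size only and 49.1% with the compared groups alone.

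Members near 0 changed sign without being called. Cmss1 was at 0.011 with RLE size factors and with DESeq2, 0.079 with the compared groups alone and -0.16 to 0.14 with a library left out. Rrp8 was at 0.047 with RLE size factors and 0.046 with DESeq2, 0.11 with the compared groups alone, 0.013 with the replicate block and -0.35 to 0.38 with a library left out. Tsr1 was at -0.025 with library size only.

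With the replicate number as a block, 24 members were called lower, 23 of them among the 24 above. Deviations of same-numbered libraries correlated at -0.01, 0.02 and -0.04, so the numbers were not taken to pair the libraries. With 2 libraries per group the spread between them sets the precision.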

Other observations

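In uninjured Wt 3 of 47 members were higher in replicate 1 and the rest in replicate 2, in Wt at 2 dpi 32 were higher in replicate 1, and in the mutant 14 were. The median absolute log2 ratio between replicates over the members was 0.33 for the uninjured pair, 0.19 for the injured Wt pair and 0.26 for the mutant pair, with snu13b (1.90), rrp8 (0.73) and riok2 (1.02) the farthest apart. The same uninjured libraries differed in their summed rod markers, at 9646 CPM in replicate 1 and 16858 CPM in replicate 2, and in their MG markers, at 4017 and 3340 CPM. Whether these belong together was not tested.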
